A study of Homo sapiens with 52 samples.

Results

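The 37 genes of the human mitochondrial chromosome were followed through 52 RNA sequencing libraries of hepatoblastoma cells and macrophages. Members were chosen by symbol: every gene whose symbol begins with MT-, which gave 13 mRNAs, 2 ribosomal RNAs (rRNAs) and 22 transfer RNAs (tRNAs), 37 of the 62696 genes counted in the tumour lines and 37 of the 61209 counted in the macrophages. The mRNAs and both rRNAs had counts in every library, and all 15 passed the filter on low counts, as did 5 tRNAs in each tumour line and 6 in the macrophages.

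Huh6 (18 libraries) and HepG2 (13 libraries) are established hepatoblastoma lines, a liver tumour of childhood in which beta-catenin signalling is commonly active. Cells of each line received empty vehicle, the Wnt inhibitor PKF118-310 (0.2 or 0.3 µM in both lines, 0.4 µM in Huh6 alone) or iMDK, an inhibitor of the growth factor midkine (5 or 10 µM), for 48 h. THP-1 (21 libraries) is a monocytic leukaemia line that had been turned into macrophages with the phorbol ester PMA at 80 ng per ml. THP-1 cells were kept alone or for 24 h with Huh6 or HepG2 cells that were untreated or had taken iMDK (5 or 10 µM) for 24 h, and were sorted before extraction. Each group had 3 libraries, except HepG2 at 0.3 µM PKF118-310, which had 1 because the other RNA samples of that dose gave too little material, per the labels. The labels do not say whether the libraries of a group came from separate cultures, so the p-values measure the spread between these libraries, which may be technical. RNA was selected by its poly(A) tail in all libraries. Libraries held 18.2 to 19.9 M counts (M, mega) in Huh6, 18.3 to 20.04 M in HepG2 and 12.6 to 16.9 M in THP-1.

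Mitochondria carry a small circular chromosome that is transcribed from both strands as long precursors, which are cut at the tRNAs that lie between most of the genes. The mRNAs encode core subunits of respiratory complexes I, III and IV and of the ATP synthase (complex V), and the rRNAs and tRNAs serve the translation of these mRNAs inside the organelle. All other subunits of these complexes, the mitochondrial RNA polymerase POLRMT, the DNA packaging factor TFAM and the RNA-stabilising protein LRPPRC are encoded in the nucleus. Most mitochondrial mRNAs carry short A tails, and in part of them the tail supplies the last bases of the stop codon. How far poly(A) selection retained each mRNA, MT-ND6 among them, was not tested.

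The sequences below, from GENCODE 29 transcripts on GRCh38, show what sets the members apart for a read counter. All 37 gene identifiers matched that annotation. MT-ATP8 (chrM:8366-8572, plus strand) is printed whole because it is the shortest of the mRNAs at 207 bases, and its last 46 bases, in capitals, are also the start of MT-ATP6 in another reading frame.
MT-ATP8: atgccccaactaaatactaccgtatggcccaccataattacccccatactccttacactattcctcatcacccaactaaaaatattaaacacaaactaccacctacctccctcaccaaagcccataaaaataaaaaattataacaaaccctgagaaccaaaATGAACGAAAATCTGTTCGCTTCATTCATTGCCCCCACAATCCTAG
The end of MT-ND4L (chrM:10707-10766, plus strand) shares the 7 bases in capitals with MT-ND4.
MT-ND4L end: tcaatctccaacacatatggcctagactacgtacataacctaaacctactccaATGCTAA
MT-ND5 and MT-ND6 meet end to end on opposite strands, and their last 40 bases (chrM:14109-14148, plus strand, and chrM:14149-14188, minus strand) are printed with the last codon in capitals because the results below often set this pair apart.
MT-ND5 end: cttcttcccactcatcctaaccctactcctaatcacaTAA
MT-ND6 end: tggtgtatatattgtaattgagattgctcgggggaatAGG
MT-ND2 and MT-CYB end on a lone T (capital), an unfinished stop codon that the A tail completes, as in 6 of the 12 mRNAs of the heavy strand transcript. Their last 30 bases lie at chrM:5482-5511 and chrM:15858-15887 on the plus strand.
MT-ND2 end: ctatctccccttttatactaataatcttaT
MT-CYB end: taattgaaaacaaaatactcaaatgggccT
For the rRNAs, the 30 bases richest in A are shown with runs of at least 4 A in capitals, since these RNAs were counted in libraries selected on poly(A) (chrM:993-1022 and chrM:2444-2473, plus strand).
MT-RNR1: AAAAAActccagttgacacAAAAtagacta
MT-RNR2: ataaggaaaggttAAAAAAAgtAAAAggaa
MT-ND6 is the single mRNA read from the other strand, and its base composition is the mirror of the rest: 35.6% G and 7.05% C, against 6.28 to 16.2% G and 29.5 to 36.0% C in the other 12.

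The strand matters for reading MT-ND6. The library kit keeps strand, but the strand setting of the counting is not given in the sources used here. Of 119 genes that lie antisense inside an exon of a well-counted gene in the tumour line table (host mean at least 1000 counts), 115 had 0 counts in all libraries, and 82 of 87 did in the THP-1 table. Such zeros can arise where counting ignores strand and drops reads shared by overlapping genes, or where the antisense genes are silent, so they do not settle the setting. With the setting unknown, MT-ND6 counts cannot be told apart from RNA of the opposite strand at the same place. This holds for each MT-ND6 value below. Nuclear copies of mitochondrial genes took few reads: 58 of 402 such genes had any count in the tumour lines, led by MTCO1P40 with 135 counts over all libraries, and the copies together held 3 to 20 counts per library (10 to 41 in THP-1).

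Before treatment, mitochondrial mRNAs took a larger share of the HepG2 libraries than of the Huh6 libraries. The 13 mRNAs held 3.84, 5.34 and 4.41% of the counts in the 3 HepG2 vehicle libraries (4.53% ± 0.758, SD, n = 3) and 2.17% ± 0.186 in Huh6 vehicle. The groups did not overlap, although an exact two-sided permutation test of 3 against 3 libraries cannot go below p = 0.1, the value found. The second HepG2 vehicle library stood highest for all 13 mRNAs, and its weight in the iMDK comparisons is given there. THP-1 cells alone held 2.69% ± 0.136, and the share over all 21 THP-1 libraries ran from 2.59 to 3.30%.

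**Figure D1:**
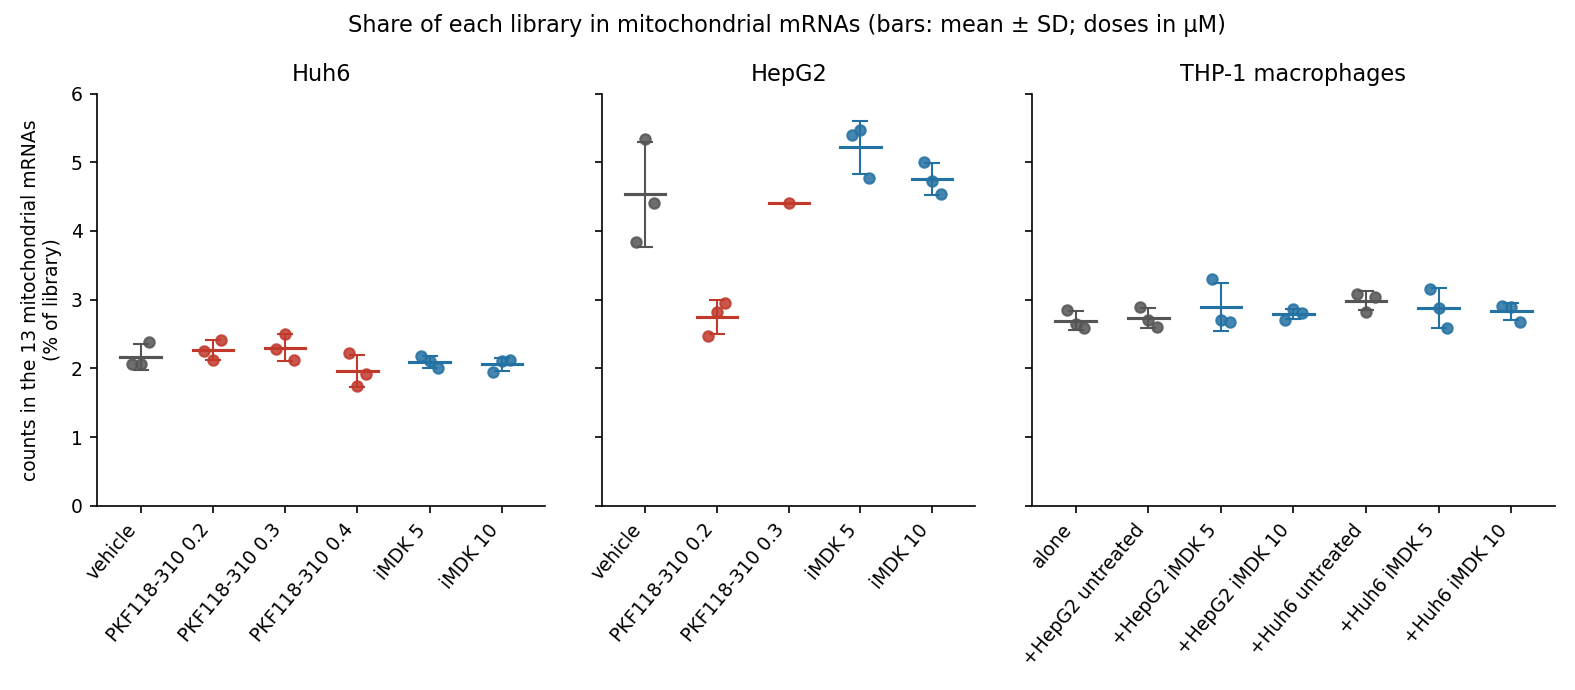
Percent of each library's counts in the 13 mitochondrial mRNAs (vertical axis) by group (horizontal axis), in Huh6, HepG2 and THP-1; points are libraries and bars the mean ± SD of 3, with no bar for the lone HepG2 library at 0.3 µM PKF118-310. HepG2 vehicle stands at 4.53% and HepG2 at 0.2 µM PKF118-310 at 2.75%, with no overlap, while the Huh6 groups lie near 2%.

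In edgeR's quasi-likelihood test of vehicle libraries, all 13 mRNAs were higher in HepG2 than in Huh6 (13 of 13 called higher, where 40.4% of the 14469 genes tested were called higher and 83% in either direction). The median log2 difference was 1.15, against -0.03 over all genes. MT-ATP6, the proton channel subunit of ATP synthase, differed most (1.46 ± 0.07, SE, adjusted p = 1.9e-18, Benjamini-Hochberg). It held 1096 to 1267 CPM (counts scaled to a fixed library total) in Huh6 and 2750 to 3835 CPM in HepG2. CPM are scaled within each line, whereas these log2 differences come from a joint fit of the vehicle libraries. In the joint fit the MT-ATP6 means were 1162 CPM in Huh6 and 3202 CPM in HepG2. MT-ND1, a membrane subunit of complex I, differed least (0.33 ± 0.07). On the scale of each line it held 2625 to 3097 CPM in Huh6 and 3030 to 4278 in HepG2, ranges that overlapped. In the joint fit its means were 2794 ± 260 CPM in Huh6 and 3516 ± 631 CPM in HepG2 (SD). The small-subunit rRNA MT-RNR1 differed more than any mRNA (1.98 ± 0.05): 449, 434 and 497 CPM in Huh6 and 1687, 2082 and 1807 CPM in HepG2. The large-subunit rRNA MT-RNR2 differed by 1.24 ± 0.05, so the ratio of MT-RNR2 to MT-RNR1 counts was 15.7 ± 0.0641 in Huh6 and 9.44 ± 0.0887 in HepG2. Nuclear subunits did not share this direction: of 30 tested for complex I, 12 were higher and 14 lower, and of 9 for complex IV, 1 was higher and 5 lower. POLRMT was higher in HepG2 (0.74 ± 0.04), TFAM lower (-0.23 ± 0.03) and LRPPRC higher (0.09 ± 0.03).

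Per kilobase of sequence not shared with a neighbour, the order of the mRNAs differed between cells in places. MT-ND4, a proton-pumping subunit of complex I, led in both tumour lines (6788 ± 1113 CPM per kb in HepG2 and 3008 ± 293 in Huh6), and MT-ATP8 had the lowest mean in both (2307 ± 413 and 911 ± 74.4). The next lowest, MT-ND5 in HepG2 (2574 ± 412) and MT-CYB in Huh6 (1034 ± 91.4), overlapped MT-ATP8 within 1 SD of each. Each SD is a spread between libraries, which genes of the same library may share, so overlapping SDs do not show that genes are equal. Within each vehicle library, MT-ATP8 lay below that next lowest gene of its line. In HepG2, MT-CO2, a copper-binding subunit of complex IV, was second at 6705 ± 1003 CPM per kb. It overlapped MT-ND4, with no fixed order between them across libraries. MT-ATP6, MT-CO3 and MT-CO1 also overlapped (5173, 5070 and 4912 CPM per kb), but MT-CO1 was the lowest of them in each vehicle library. In Huh6, MT-ND4, MT-ND1 and MT-CO2 overlapped at 3008, 2921 and 2885 CPM per kb, with MT-ND4 the highest of them in each vehicle library. In THP-1 alone MT-CO2 led with 3938 ± 191 CPM per kb. MT-CO3 (3547 ± 154) and MT-ND4 (3513 ± 234) followed, with no fixed order between them across libraries. MT-ND4L had the lowest mean (798 ± 159) and overlapped MT-ND5 (901 ± 136), but lay below it in each library of THP-1 alone. MT-RNR2 exceeded every mRNA in the tumour lines (11248 ± 1200 CPM per kb in HepG2 and 4641 ± 321 in Huh6) but not in THP-1 (2555 ± 128). These levels depend on poly(A) selection, which retains rRNA only in part.

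In HepG2, PKF118-310 at 0.2 µM lowered nearly all mitochondrial mRNAs, by unequal amounts. Of 13 mRNAs, 12 fell and 1 rose, where 36.1% of all 14111 genes tested were called lower and 35.9% higher (72% in either direction). Their median log2 fold change was -0.63, against -0.01 over all genes. The 12 that fell had no treated library in the range of the vehicle group, a description that was not set beside the same count over all genes. The share of the library in the 13 mRNAs went from 4.53% to 2.48, 2.82 and 2.95% (2.75% ± 0.245, SD, n = 3). As these are bulk samples, fewer mitochondria or cells rich in them and less RNA per mitochondrion cannot be told apart.

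Complex I members spanned the whole range. MT-ND6 fell most, from 1245, 1732 and 1452 CPM under vehicle to 433, 496 and 528 CPM, a log2 fold change of -1.60 ± 0.07 (SE, adjusted p = 1.3e-21, edgeR quasi-likelihood test, Benjamini-Hochberg). Its neighbour MT-ND5, the largest subunit encoded in the mitochondrion, went from 3994, 5470 and 4528 CPM to 1649, 1901 and 1995 CPM (-1.34 ± 0.06, adjusted p = 6.5e-20). Each of these treated libraries held less than the lowest vehicle library. MT-ND4, which lies just before MT-ND5 on the chromosome, fell by less, from 7939, 10953 and 9028 CPM to 5307, 6212 and 6629 CPM (-0.62 ± 0.07). MT-ND4L, which shares 7 bases and a transcript with MT-ND4, changed by -0.51 ± 0.06, MT-ND3 by -0.55 ± 0.03 and MT-ND1 by -0.37 ± 0.07. MT-ND2 was the exception: 2445, 3337 and 2863 CPM under vehicle and 2936, 3344 and 3410 CPM under PKF118-310 overlapped, and the small rise (0.16 ± 0.06, adjusted p = 0.018) lost its call in 6 of 15 alternative analyses, among them the DESeq2 test and the removal of the first or the third vehicle library or of the second or the third treated library. MT-ND1 and MT-ND2 are neighbours with only tRNAs between them, and the ratio of their counts was 1.45 times the vehicle value of 0.802 ± 0.0202, with no overlap.

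All 3 mitochondrially encoded subunits of complex IV fell together. MT-CO1, the catalytic subunit, went from 6426, 9062 and 7234 CPM to 2837, 3198 and 3410 CPM (-1.27 ± 0.07, adjusted p = 5.1e-18, edgeR). MT-CO2 fell from 3921, 5291 and 4547 CPM to 1910, 2091 and 2226 CPM (-1.14 ± 0.06), and MT-CO3, which stabilises the core, fell from 3374, 4768 and 3768 CPM to 1518, 1711 and 1837 CPM (-1.23 ± 0.07). MT-CYB, the sole complex III subunit encoded in the mitochondrion, fell from 2647, 3711 and 3080 CPM to 1423, 1668 and 1754 CPM (-0.96 ± 0.07). The ATP synthase pair MT-ATP8 and MT-ATP6, which share a transcript, changed alike, by -0.62 ± 0.07 and -0.63 ± 0.06. Genes that touch on the chromosome could still differ: MT-ATP6 and MT-CO3 changed by -0.63 and -1.23.

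The rRNAs fell less than most mRNAs. MT-RNR1 went from 1687, 2082 and 1807 CPM to 1383, 1523 and 1500 CPM (-0.34 ± 0.05, adjusted p = 1.6e-07, edgeR) and MT-RNR2 changed by -0.40 ± 0.05. The ratio of rRNA to mRNA counts went from 0.416 ± 0.0259 to 0.553 ± 0.022, with no overlap. Among the 5 tRNAs tested, 3 fell: MT-TP (-1.24 ± 0.11, from 257 to 303 counts per library down to 101 to 159), MT-TE (-2.72 ± 0.40, from 21 to 40 counts down to 4 to 6) and MT-TY (-0.68 ± 0.22). MT-TC (-0.42 ± 0.19, adjusted p = 0.055, edgeR) and MT-TL1 (-0.35 ± 0.21) were not called. Of the 5, 4 are annotated on the light strand, as MT-ND6 is, and MT-TL1 on the heavy strand, and the limit on strand given for MT-ND6 holds for these tRNAs too. Mature tRNAs carry no A tail, so these counts are of whatever tRNA-containing RNA the selection retained.

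**Figure D2:**
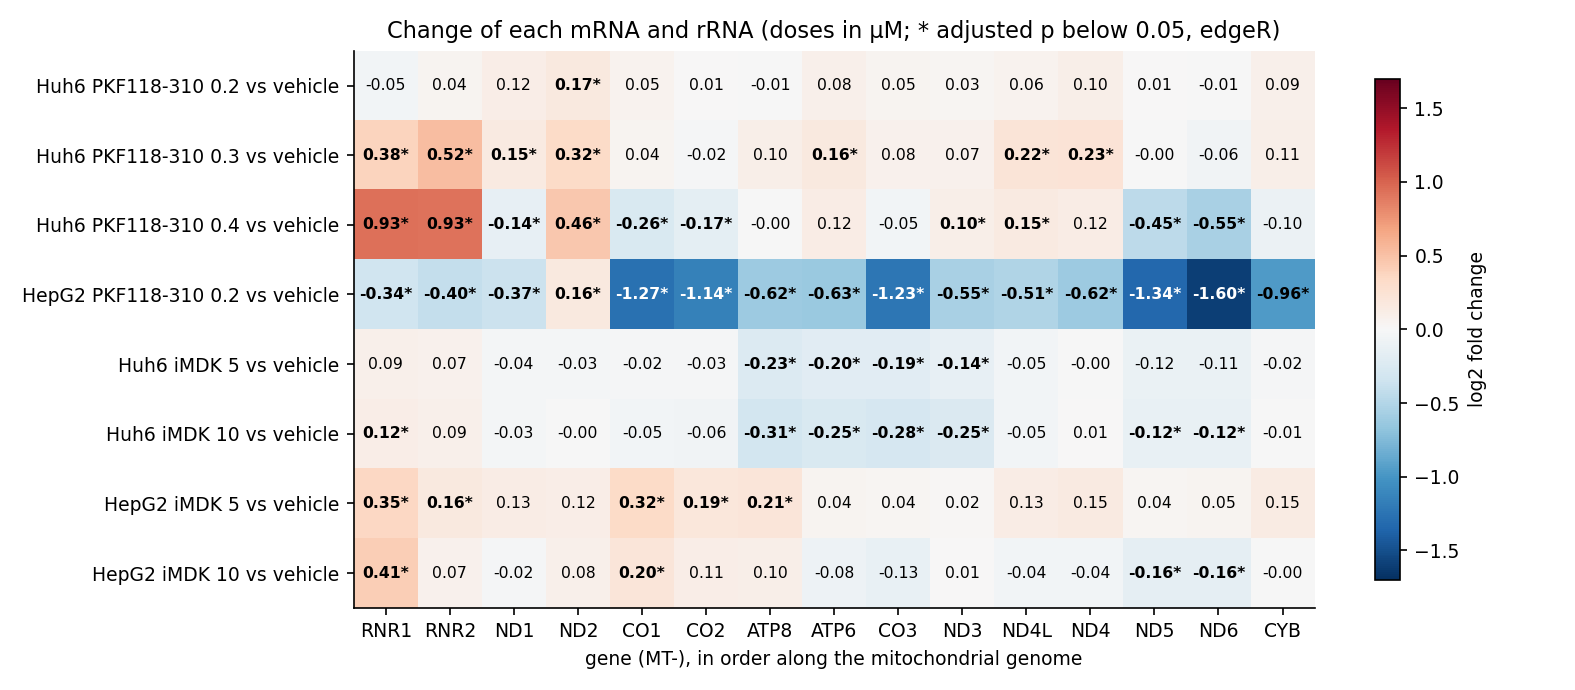
Log2 fold changes of the 13 mRNAs and 2 rRNAs (columns, in order along the chromosome) in each comparison (lines of cells, as labelled), on a colour scale from lower to higher; cells with a bold value and an asterisk passed an adjusted p of 0.05 in edgeR's quasi-likelihood test. HepG2 at 0.2 µM PKF118-310 is lower for 12 mRNAs, down to -1.60 for MT-ND6, and Huh6 at 0.4 µM is higher by 0.93 for both rRNAs.

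The lone HepG2 library at 0.3 µM allowed no test, and it did not simply extend the 0.2 µM pattern. MT-ND2 stood at 6873 CPM, above the vehicle maximum of 3337 CPM. MT-ND3 (2298 CPM) also lay above its vehicle range, as did MT-ATP6 (4000 CPM, against a vehicle maximum of 3835 CPM). MT-ND1 (4014), MT-CO2 (5130), MT-ATP8 (337), MT-ND4 (10093) and MT-CYB (2859 CPM) lay inside theirs. MT-CO1 (3123), MT-CO3 (2591), MT-ND5 (2000) and MT-ND6 (683 CPM) lay below the lowest vehicle library, as at 0.2 µM. MT-ND4L was at 549 CPM, so the ratio of MT-ND4 to MT-ND4L counts was 18.4 there against 10.6 ± 0.154 under vehicle. The rRNAs MT-RNR1 (1907 CPM) and MT-RNR2 (17792 CPM) lay inside their vehicle ranges. The share of this library's counts in the 13 mRNAs was 4.40%.

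In Huh6, PKF118-310 changed the mRNAs less and raised the rRNAs with dose. At 0.2 µM 1 of 13 mRNAs was called, MT-ND2 (0.17 ± 0.05, adjusted p = 0.048), where 2.24% of the 15029 genes tested were called in either direction (1.04% higher), and this call was lost in 8 of 14 alternatives, among them the removal of the first or second vehicle library or of the first or the third treated one. At 0.3 µM 5 of 13 rose, beside 15% of all genes, with MT-ND2 (0.32 ± 0.05), MT-ND4 (0.23 ± 0.05) and MT-ND4L (0.22 ± 0.06) ahead of MT-ATP6 (0.16 ± 0.05) and MT-ND1 (0.15 ± 0.05), all members of complex I except MT-ATP6. Under DESeq2 only MT-ND2 of these was called, and the count was 3 without the first or second vehicle library or the second treated library, and 8 without the third treated library. At 0.4 µM 3 rose and 5 fell, beside 28.9% and 27.9% of all genes (56.8% in either direction), and the median of the mRNAs was -0.05, against -0.01 over all genes. The number that rose was 1 without the first or second vehicle or the first treated library and 5 without the third vehicle or the second treated library, and the number that fell was 8 without the first treated library. The share of the library in the 13 mRNAs, 1.96% ± 0.238, overlapped that of vehicle.

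The members at both ends were those seen in HepG2. MT-ND2 held 1212, 1211 and 1386 CPM under vehicle, 1408, 1369 and 1508 at 0.2 µM, 1575, 1729 and 1465 at 0.3 µM and 1919, 1575 and 1733 CPM at 0.4 µM. Neighbouring doses overlapped, but 0.3 and 0.4 µM each lay wholly above vehicle (0.46 ± 0.05 at 0.4 µM, adjusted p = 5.2e-11, edgeR). MT-ND6 held 655, 647 and 761 CPM under vehicle, 699, 628 and 725 at 0.2 µM and 654, 710 and 616 at 0.3 µM. At 0.4 µM alone all its libraries lay below vehicle, at 517, 434 and 462 CPM (-0.55 ± 0.05, adjusted p = 1.2e-12, edgeR). MT-ND5 did the same, from 2185, 2135 and 2463 CPM under vehicle to 1812, 1537 and 1634 CPM at 0.4 µM (-0.45 ± 0.05). MT-CO1 (-0.26 ± 0.06) and MT-CO2 (-0.17 ± 0.04) fell as well at 0.4 µM, though the MT-CO1 values of 3058, 2309 and 2578 CPM overlapped the vehicle values of 3002, 3007 and 3494 CPM. The ratio of MT-ND2 to MT-CO1 counts moved from 0.401 ± 0.00382 under vehicle through 0.435 and 0.486 to 0.661 ± 0.0291 at 0.4 µM. In HepG2 the same ratio was 0.382 ± 0.0138 under vehicle, 1.03 ± 0.0239 at 0.2 µM and 2.20 in the lone library at 0.3 µM.

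Set side by side, the 13 changes in HepG2 at 0.2 µM and in Huh6 at 0.4 µM had MT-ND6, MT-ND5 and MT-CO1 lowest and MT-ND2 highest in both (Pearson r = 0.88 and Spearman rho = 0.80 over 13 genes, given as a description). Other places differed: from the lowest up, MT-ND1 was at rank 12 in HepG2 and 5 in Huh6, and MT-CO3 at rank 4 and 7. Doses differ and the genes share precursors, libraries and depth, so the 13 points are not independent. The comparisons share no library. MT-CO1 changed by -0.26 in Huh6 and by -1.27 in HepG2, and MT-CO3 by -1.23 in HepG2 while it did not pass in Huh6 (-0.05). MT-ND2 had the larger estimate in Huh6, 0.46 against 0.16 in HepG2.

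**Figure D3:**
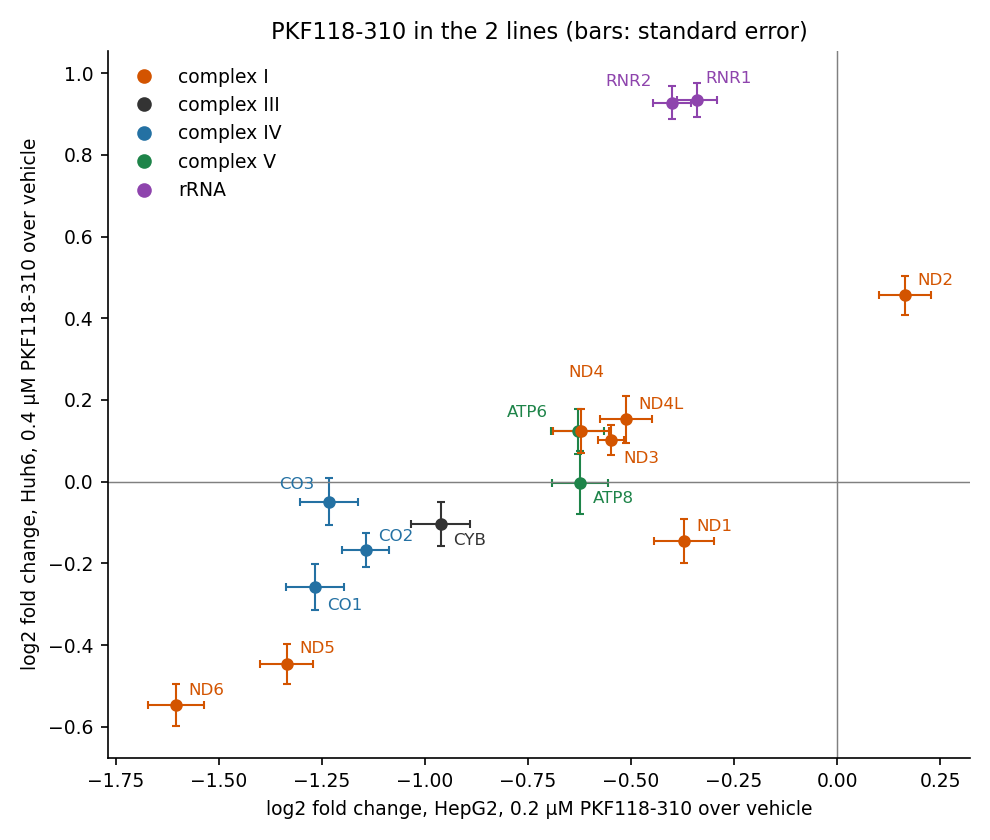
Log2 fold change of each mitochondrial mRNA and rRNA in Huh6 at 0.4 µM (vertical axis) against HepG2 at 0.2 µM PKF118-310 (horizontal axis), each over its own vehicle, with bars of 1 SE. MT-ND6 and MT-ND5 lie at the low end and MT-ND2 at the high end of the mRNAs in both lines, and the rRNAs are lower in HepG2 (-0.34 and -0.40) but higher in Huh6 (0.93 each).

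The rRNAs were lower in HepG2 at 0.2 µM and higher in Huh6 at 0.3 and 0.4 µM, so the doses differ. At the matched 0.2 µM neither was called in Huh6 (MT-RNR1 -0.05 and MT-RNR2 0.04). In Huh6, MT-RNR1 held 449, 434 and 497 CPM under vehicle, 452, 420 and 461 at 0.2 µM, 592, 627 and 572 at 0.3 µM and 926, 841 and 870 CPM at 0.4 µM. MT-RNR2 held 7043, 6860 and 7802 CPM under vehicle and 14712, 12926 and 13652 CPM at 0.4 µM. Both rose by 0.93 ± 0.04 at 0.4 µM (adjusted p = 9.2e-23 and 1.8e-23, edgeR) and by 0.38 and 0.52 at 0.3 µM, and each of these doses lay wholly above vehicle. The ratio of rRNA to mRNA counts was 0.359 ± 0.00721 under vehicle, 0.352 at 0.2 µM, 0.474 at 0.3 µM and 0.717 ± 0.0368 at 0.4 µM. Of the 5 tRNAs tested, 3 were lower at 0.4 µM: MT-TP (-0.94 ± 0.16), MT-TC (-0.64 ± 0.19) and MT-TE (-1.07 ± 0.37). MT-TY, annotated on the light strand like these 3, was not called (-0.24 ± 0.26), nor was MT-TL1 of the heavy strand (0.11 ± 0.18). Against 0.2 µM, 0.4 µM lowered 6 mRNAs and raised 1, beside 26.5% and 28.1% of all genes (54.6% in either direction), again with MT-ND6 (-0.54 ± 0.05), MT-ND5 (-0.45 ± 0.05) and MT-ND2 (0.29 ± 0.05) at the ends. Without the second 0.4 µM library 4 mRNAs were higher than at 0.2 µM.

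**Figure D4:**
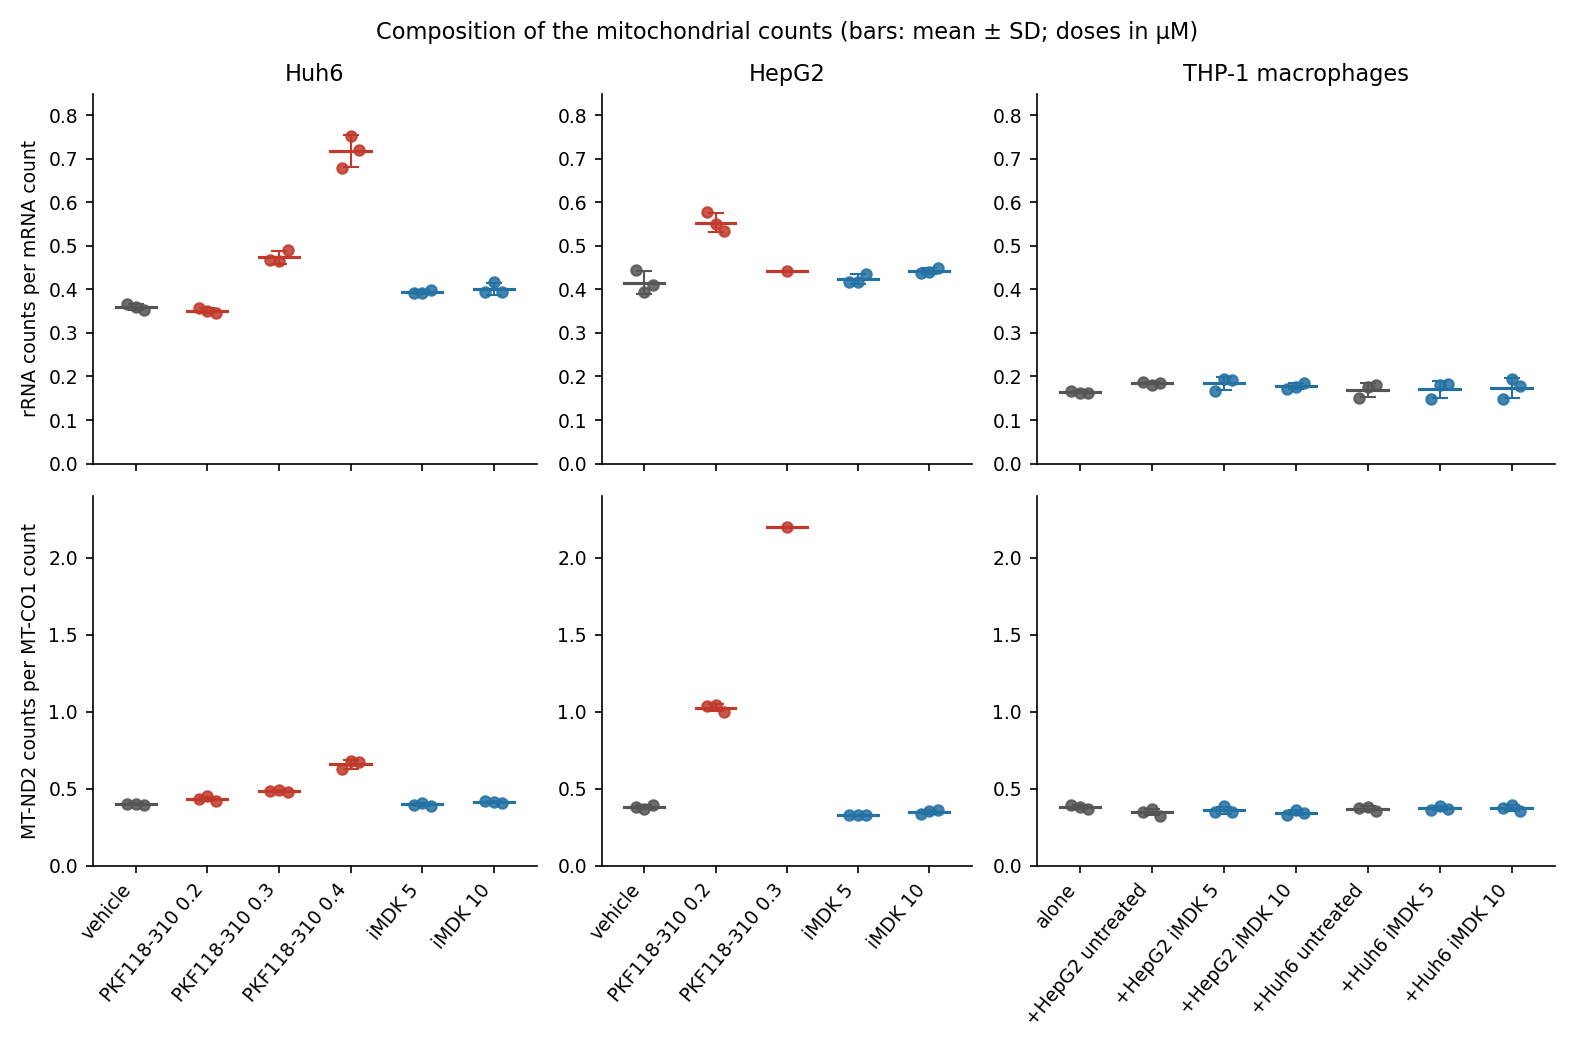
Ratios of counts within each library (vertical axes) by group (horizontal axes) in Huh6, HepG2 and THP-1, points for libraries and bars for the mean ± SD of 3 (no SD for the lone HepG2 library at 0.3 µM PKF118-310). The rRNA to mRNA ratio in Huh6 is 0.359 under vehicle and 0.717 at 0.4 µM PKF118-310, and the ratio of MT-ND2 to MT-CO1 goes from 0.382 to 1.03 in HepG2 at 0.2 µM.

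The response at the matched dose of 0.2 µM differed between the lines. In the test of the difference itself, 12 of 13 mRNAs changed more negatively in HepG2 than in Huh6 (28.1% of 15438 genes did, and 56.3% differed in either direction). MT-ND6 differed most (-1.59 ± 0.09, adjusted p = 2.8e-20, edgeR) and MT-ND1 least among the 12 (-0.48 ± 0.09), while MT-ND2 was not called. Both rRNAs differed too, MT-RNR2 by -0.44 ± 0.06.

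Nuclear genes for the same complexes had medians below 0 in HepG2 as well, nearer to 0 than those of the mitochondrial subunits of each complex. At 0.2 µM PKF118-310, where 36.1% of all genes were called lower and 35.9% higher, 19 of 30 nuclear complex I subunits tested fell and 3 rose (median -0.20), 7 of 8 of complex III fell and 0 rose (-0.38), 6 of 9 of complex IV fell and 1 rose (-0.12), and 9 of 12 of complex V fell and 2 rose (-0.46). The core protein UQCRC2 of complex III (-0.70 ± 0.03) and the catalytic ATP synthase subunit ATP5F1A (-0.67 ± 0.03) were among the lowest, while ATP5MJ rose (0.71 ± 0.05). In complex IV the nuclear median of -0.12 stood beside -1.23 for the 3 mitochondrial subunits. Among factors for mitochondrial DNA and RNA, TFAM fell (-0.78 ± 0.04), LRPPRC fell (-0.80 ± 0.03), its partner SLIRP fell (-0.40 ± 0.06) and the mitochondrial translation activator PTCD3 fell (-0.57 ± 0.04), while POLRMT (0.40 ± 0.04), the exonuclease REXO2 (0.89 ± 0.05) and the DNA polymerase POLG (0.47 ± 0.04) rose. PPARGC1A, a coactivator of mitochondrial biogenesis, fell by 2.46 on the log2 scale. As lists, mitochondrial transcription had 5 higher and 3 lower of 14, RNA processing 6 and 5 of 18, and the mitochondrial ribosome 17 and 23 of 60.

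In Huh6 at 0.4 µM, 28.9% of all genes were called higher and 27.9% lower. Of 60 mitochondrial ribosomal proteins 40 rose and 4 fell (median 0.19), and of 18 RNA processing factors 13 rose and 2 fell (0.23). The RNA helicase SUPV3L1 (0.54 ± 0.06), the exoribonuclease PNPT1 (0.38 ± 0.03) and SLIRP (0.37 ± 0.05) rose, and LRPPRC rose by 0.16 ± 0.02. The replicative helicase TWNK rose (0.67 ± 0.05) and the termination factor homologue MTERF2 fell (-1.04 ± 0.17), whereas TFAM was at 0.02 ± 0.03 and not called. Nuclear subunits were 12 higher and 6 lower of 30 for complex I and 6 higher and 1 lower of 9 for complex IV.

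**Figure D5:**
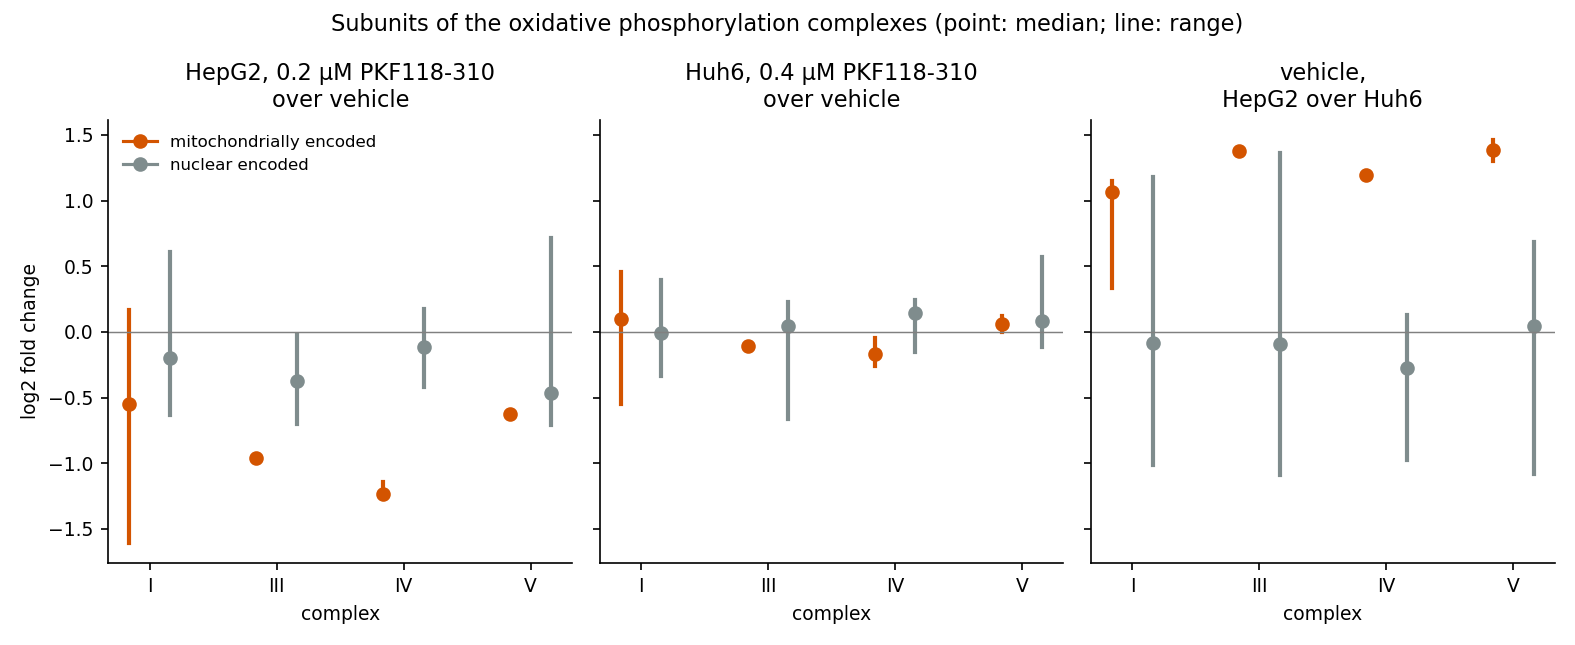
Log2 fold changes (vertical axis) of mitochondrially encoded subunits beside nuclear encoded subunits of complexes I, III, IV and V (horizontal axis), in the comparisons named above the panels; points are medians over the subunits and lines run from the lowest to the highest subunit. In HepG2 at 0.2 µM PKF118-310 the mitochondrial subunits of complex IV have a median of -1.23 while the nuclear ones have a median of -0.12.

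Line identity markers moved with the PKF118-310 groups and with the iMDK groups. Hepatoblastoma marker genes (17, of which VTN was at 0 in every library) summed to 32402 to 34964 CPM in HepG2 vehicle and 9434 to 10333 CPM at 0.2 µM PKF118-310. There 15 of 16 tested were lower, beside 36.1% of all genes. In Huh6 they summed to 14808 to 14998 CPM under vehicle and 8786 to 9722 CPM at 0.4 µM, with 14 of 15 lower beside 27.9% of all genes. With iMDK at 5 and 10 µM the sums were 27685 to 28547 and 25010 to 25535 CPM in HepG2. In Huh6 they were 12278 to 13058 and 10639 to 10883 CPM. Macrophage markers (14) summed to 1136 to 1268 CPM in HepG2 vehicle, nearly all of it LYZ, and to 246 to 285 CPM at 0.2 µM PKF118-310. CD68 and C1QA were at 0 in every library. The part of these shifts in the mitochondrial results was not tested.

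In Huh6, iMDK lowered a block of 4 neighbouring mRNAs. At 5 µM MT-ATP8 (-0.23 ± 0.08), MT-ATP6 (-0.20 ± 0.05), MT-CO3 (-0.19 ± 0.06) and MT-ND3 (-0.14 ± 0.04) fell and no mRNA rose, where 18.3% of all genes were called lower and 35.6% in either direction. The count was 1 without the third vehicle library and 2 without the third treated library. These genes follow one another from 8366 to 10404 on the chromosome. At 10 µM the same 4 fell by 0.31, 0.25, 0.28 and 0.25 on the log2 scale, together with MT-ND5 (-0.12 ± 0.05) and MT-ND6 (-0.12 ± 0.05), so that 6 fell and 0 rose beside 26.1% and 26% of all genes (52.1% in either direction).

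MT-ATP8, an accessory subunit of the ATP synthase membrane part, held 140, 139 and 160 CPM under vehicle, 130, 123 and 123 CPM at 5 µM and 114, 121 and 121 CPM at 10 µM. MT-CO3 held 1569, 1611 and 1893 CPM under vehicle, 1545, 1470 and 1420 at 5 µM and 1311, 1418 and 1435 CPM at 10 µM. MT-ND3, a complex I subunit, held 562, 564 and 581 CPM, then 539, 534 and 481, then 476, 470 and 489 CPM. Each of these genes lay wholly below vehicle at both doses. The DESeq2 test called 0 of 13 at 5 µM. Between the doses, 1 of 13 was called lower at 10 µM (MT-ND3, -0.11 ± 0.04), beside 12.2% of all genes (24.9% in either direction), and that call was lost in 6 of 14 alternatives, among them the removal of the first or second library of either dose. The median over the mRNAs was -0.05 at 5 µM and -0.06 at 10 µM. MT-TP fell at both doses (-0.38 ± 0.15 and -0.61 ± 0.15), and MT-RNR1 rose at 10 µM (0.12 ± 0.04).

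In HepG2, iMDK raised the small rRNA at both doses, while the mRNAs called higher were no larger a share than among all genes. At 5 µM MT-CO1 (0.32 ± 0.07), MT-CO2 (0.19 ± 0.06) and MT-ATP8 (0.21 ± 0.07) rose and 0 of 13 fell, beside 25.6% and 26% of all genes (51.6% in either direction). MT-CO3, the remaining mitochondrial subunit of complex IV, was not called (0.04), and DESeq2 called 1 mRNA higher. MT-CO1 held 6426, 9062 and 7234 CPM under vehicle and 9910, 9981 and 8518 CPM at 5 µM, so that the second vehicle library lay inside the treated range. Without that vehicle library 12 of 13 mRNAs were called higher at 5 µM, without the first vehicle library 1 was, and without the third treated library 8 were.

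MT-RNR1 was the clearest member, from 1687, 2082 and 1807 CPM under vehicle to 2436, 2512 and 2180 CPM at 5 µM (0.35 ± 0.05, adjusted p = 1.6e-07, edgeR) and 2598, 2444 and 2378 CPM at 10 µM (0.41 ± 0.05), with no overlap at either dose. MT-RNR2 rose by 0.16 ± 0.04 at 5 µM and was not called at 10 µM, so that the ratio of MT-RNR2 to MT-RNR1 went from 9.44 ± 0.0887 through 8.26 ± 0.207 to 7.44 ± 0.0528 with no overlap between neighbouring doses. At 10 µM 1 of 13 mRNAs rose (MT-CO1, 0.20 ± 0.07) and 2 fell (MT-ND5 and MT-ND6, each -0.16), beside 30% and 29% of all genes (58.9% in either direction), and DESeq2 called 0 in either direction. Without the second vehicle library 4 were higher and 0 lower, and without the first 0 were higher and 6 lower. Without the third vehicle or the first treated library 0 were higher, and without the second or the third treated library 0 were lower. Between the doses MT-ND4 (-0.19 ± 0.07), MT-ND5 (-0.20 ± 0.06) and MT-ND6 (-0.20 ± 0.07) were lower at 10 µM, 3 of 13 beside 7.46% of all genes (15% in either direction), and the DESeq2 test called 0 of them. That count was 9 without the third 5 µM library and 0 without either of the other 5 µM libraries or the second or the third 10 µM library.

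The iMDK responses of the lines differed for 5 of the 13 mRNAs at each dose, all of them higher in HepG2 (15.6% of genes at 5 µM and 21% at 10 µM were called higher, 32.6% and 41.7% in either direction). They were MT-CO1, MT-CO2, MT-ATP8, MT-ATP6 and MT-ND3, with MT-ATP8 differing by 0.45 ± 0.10 and 0.44 ± 0.09. Without the second HepG2 vehicle library 13 differed at 5 µM and 10 at 10 µM, and without the third HepG2 library at 5 µM 12 did. The counts were 3 at 5 µM and 2 at 10 µM without the third Huh6 vehicle library, and 3 at each dose without the first HepG2 vehicle library. They were also 3 at 5 µM without either of the other HepG2 iMDK libraries, and 3 at 10 µM without the first iMDK library of either line. At 10 µM the nuclear subunits of complex III fell in HepG2, 8 of 8 (median -0.21) beside 29% of all genes called lower there, with UQCRC2 at -0.50 ± 0.03, while MT-CYB of the same complex was not called. TFAM (-0.57 ± 0.04) and LRPPRC (-0.68 ± 0.03) fell there and POLRMT was not called (-0.02 ± 0.04). In Huh6 at 10 µM none of these 3 was called, with TFAM at 0.05 ± 0.03, LRPPRC at 0.02 ± 0.02 and POLRMT at -0.01 ± 0.04, while TWNK rose (0.70 ± 0.05).

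In THP-1 macrophages few mitochondrial mRNAs were called with co-culture. With HepG2 against THP-1 alone, 0 of 13 were called in edgeR, beside 21.6% of the 15500 genes tested, 0 in DESeq2 and 1 (MT-ND1) at an unadjusted p under 0.05, and the median was 0.03. With Huh6 against alone 0 of 13 were called beside 1.83% of genes (0 in DESeq2, 5 at an unadjusted p under 0.05), though all 13 estimates were above 0 (0.07 to 0.22). Between the co-cultures, MT-ND1 was lower with HepG2 (2455, 2371 and 2585 CPM) than with Huh6 (2817, 2911 and 3187 CPM; -0.27 ± 0.08, adjusted p = 0.023), 1 of 13 beside 7.56% of genes called lower (16.7% in either direction). This call was lost in 6 of 15 alternatives, among them the removal of the first or second HepG2 co-culture library or of the second or the third Huh6 one. Libraries with the same replicate number deviated together in this comparison, and with the replicate number as a block 5 mRNAs were lower: MT-ND1 (-0.27), MT-ATP8 (-0.26), MT-ND5 (-0.23), MT-CYB (-0.23) and MT-ND2 (-0.20). With the same block MT-ND1 was also lower with HepG2 than alone (-0.19, adjusted p = 0.026, edgeR). Same-numbered libraries deviated together with Huh6 against alone too, where the block left no mRNA called (smallest adjusted p = 0.051, MT-ND6, edgeR).

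Pretreatment of the tumour cells with iMDK left 0 of 13 mRNAs and 0 of 2 rRNAs called by edgeR or DESeq2 in all 4 comparisons with untreated co-culture, and 1 mRNA (MT-ATP8 with Huh6 at 5 µM) had an unadjusted p under 0.05. The background without the replicate number in the fit was 0.0903% of genes with HepG2 at 5 µM and 3.34% at 10 µM. It was 0.0129% with Huh6 at 5 µM and 0.0581% at 10 µM, so few genes of any kind were called in that fit. Same-numbered libraries deviated together with HepG2 at both doses and with Huh6 at 5 µM. With the replicate number as a block, 193 genes were higher and 421 lower with HepG2 at 5 µM, and 818 and 984 at 10 µM. With Huh6, 3 were higher and 18 lower at 5 µM, and 6 and 69 at 10 µM. The medians of the 13 mRNAs lay between -0.09 and 0.08.

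MT-RNR1 was higher in co-culture with HepG2 than in both other groups before tumour reads were subtracted. It held 400, 414 and 368 CPM in THP-1 alone, 643, 583 and 583 CPM with HepG2 and 459, 443 and 473 CPM with Huh6. With HepG2 it was higher than alone (0.61 ± 0.09, adjusted p = 3.0e-05) and than with Huh6 (0.40 ± 0.09, adjusted p = 0.0041, edgeR quasi-likelihood test), and the groups did not overlap. Of all genes, 12% and 9.13% were called higher in these comparisons. Tumour reads moved with these groups: the estimated share of HepG2 reads was 8.32 to 10.1% with untreated HepG2, 4.14 to 6.22% and 1.51 to 3.50% after 5 and 10 µM iMDK, and the share of Huh6 reads was 0.418 to 1.68% with untreated Huh6. Hepatoblastoma markers summed to 57.6 to 70.0 CPM in THP-1 alone, mostly GPC3, with 8 of 17 (AFP, APOB, TTR, FGB, FGG, DLK1, VTN and KRT19) at 0 in each of those libraries, and to 2846 to 3363 CPM with HepG2, where 16 of 17 had counts in every library. MT-RNR1 is also more abundant in HepG2 (1687 to 2082 CPM under vehicle). With the estimated tumour reads subtracted, MT-RNR1 differed from THP-1 alone by 0.35 (adjusted p = 0.013) and from Huh6 co-culture by 0.13 (adjusted p = 0.41). MT-RNR2, not called before subtraction, was lower with HepG2 than with Huh6 after it (-0.49, adjusted p = 0.0042), as were MT-ATP8 (-0.41), MT-ND1 (-0.28) and MT-ND2 (-0.27). Values after subtraction depend on the HepG2 vehicle levels that were taken off. MT-RNR2 held 16070 to 19644 CPM in HepG2 vehicle and 4207 to 4537 CPM in THP-1 with untreated HepG2, so its lower value may come from the subtraction itself. Whether the vehicle levels carry over to tumour reads in sorted cells was not tested.

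Macrophage identity markers in THP-1 summed to 16021 to 19649 CPM over all groups, with CD68 and C1QA listed at 0 in each library, and their part in the mitochondrial results was not tested. Nuclear factors for mitochondrial RNA were lower with HepG2 than alone, 11 of 18 for RNA processing (0 higher, median -0.24) and 5 of 14 for transcription (0 higher, -0.26), beside 9.68% of all genes called lower. POLRMT fell by 0.27 ± 0.07 on the log2 scale and ELAC2, which cuts tRNA ends, by 0.42 ± 0.07, while TFAM (-0.03 ± 0.13) and LRPPRC (-0.10 ± 0.09) were not called.

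The tRNAs were sparse throughout. Of 22, 7 had 0 counts in all libraries of Huh6, 7 in HepG2 and 5 in THP-1, and a library held 206 to 402 tRNA counts in Huh6, 197 to 612 in HepG2 and 691 to 1301 in THP-1. MT-TP held the most of any tRNA in each of the 3 lines, with 65 to 184 counts per library in Huh6, 82 to 348 in HepG2 and 534 to 1147 in THP-1. The ratio of MT-ND6 to MT-ND5 counts also set THP-1 apart, at 0.413 to 0.621 over its libraries, against 0.304 ± 0.00468 in Huh6 vehicle and 0.316 ± 0.00444 in HepG2 vehicle. It went down to 0.263 ± 0.0019 in HepG2 at 0.2 µM PKF118-310 and to 0.284 ± 0.00135 in Huh6 at 0.4 µM, with no overlap with vehicle in either line. In the lone HepG2 library at 0.3 µM the ratio was 0.342, above the HepG2 vehicle libraries (0.312 to 0.321).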

How the data were processed

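Poly(A) RNA of HepG2, Huh6 and THP-1 cells was sequenced. The deposited values are raw counts of reads per gene, in a table for the tumour lines and a table for THP-1. GRCh38 is the build in the submitters' processing notes, which list featureCounts, the aligner STAR (2.7.3a), SAMtools (1.16.1) and the package edgeR (3.36). For featureCounts, neither version, annotation nor strandedness was given in the sources used here.

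Tests were run in edgeR 4.0.16, with limma 3.58.1 under R 4.3.3: filterByExpr by group (minimum count 10, minimum total 15), TMM scaling and a two-sided quasi-likelihood F test of group means, with Benjamini-Hochberg adjustment over all genes tested and 0.05 as the limit for a call. The lines had separate fits, and tests of a difference between lines used the 4 groups concerned. The lone HepG2 library at 0.3 µM entered the HepG2 fit as a group of its own and no comparison. The SE of a log2 fold change is its size over the root of F. CPM are TMM-scaled. Shares and ratios of counts were compared with an exact two-sided permutation test (scipy 1.17.1), 171 in all, of which the smallest possible p is 0.1 and the smallest adjusted p was 0.259. Tumour reads in THP-1 libraries were estimated as the median, over hepatoblastoma markers, of the excess over THP-1 alone relative to the tumour line. The tests were checked on simulated data.

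Members and gene lists were chosen with earlier results of these data known. All mRNAs, rRNAs and tested tRNAs could be named, and of each nuclear list up to 4 called genes with the largest change, besides POLRMT, TFAM and LRPPRC. Alternatives were DESeq2 1.42.0 (test and size factors), total-count scaling, scaling without the mitochondrial genes, no filter, a change of 1.5-fold as well, fits of only the groups compared, fits without the lone library, subtraction of tumour reads, a replicate block and leaving out each library. Replicate numbers were taken to pair libraries where all same-numbered libraries deviated together (r above 0.1). This held in 5 THP-1 comparisons (r from 0.112 to 0.640) and in no tumour line comparison.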

Additional observations from a re-analysis of the deposited data

Results flagged for a closer look

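The responses of HepG2 and Huh6 to the same dose differed, by a test of the difference itself (edgeR quasi-likelihood test, Benjamini-Hochberg adjusted over all genes), for 30 values of the mitochondrial genes. Values are the log2 fold change in HepG2 minus that in Huh6.

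For 0.2 µM PKF118-310 all 16 such differences were negative. Among complex I members they were -0.48 for MT-ND1, -0.57 for MT-ND3, -0.56 for MT-ND4L, -0.72 for MT-ND4, -1.34 for MT-ND5 and -1.59 for MT-ND6. MT-CYB of complex III differed by -1.05, and the complex IV subunits MT-CO1, MT-CO2 and MT-CO3 by -1.32, -1.15 and -1.28. The ATP synthase pair MT-ATP8 and MT-ATP6 differed by -0.61 and -0.71, the rRNAs MT-RNR1 and MT-RNR2 by -0.29 and -0.44, and the tRNAs MT-TE and MT-TP by -2.20 and -1.33.

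For iMDK all such differences were positive, 7 at each dose. At 5 µM they were 0.37 for MT-CO1, 0.24 for MT-CO2, 0.45 for MT-ATP8, 0.26 for MT-ATP6, 0.18 for MT-ND3, 0.29 for MT-RNR1 and 0.60 for MT-TP. At 10 µM they were 0.28 for MT-CO1, 0.21 for MT-CO2, 0.44 for MT-ATP8, 0.20 for MT-ATP6, 0.29 for MT-ND3, 0.33 for MT-RNR1 and 0.81 for MT-TP.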

How the results depend on the processing

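Of 128 called values of mitochondrial genes, recomputed 948 times with 1 library left out, 833 kept their call, 115 lost it and 0 reversed; over the other alternatives 905 of 1040 kept it, 135 lost it and 0 reversed. The cause of these losses was not tested. A single uncalled value gained a call in the other direction: MT-ATP8 at 0.4 against 0.2 µM in Huh6, at -0.15 without the first 0.4 µM library (-0.15 to 0.092 over the libraries left out). Counts out of 13 mRNAs with 1 library left out were as follows. The 12 lower in HepG2 under PKF118-310, the 12 more negative in HepG2 than Huh6 and the 13 higher in HepG2 vehicle did not change. In Huh6 with PKF118-310, 0 to 1 were higher at 0.2 µM, 3 to 8 at 0.3 µM and 1 to 5 at 0.4 µM, with 4 to 8 lower there. At 0.4 against 0.2 µM, 1 to 4 were higher and 5 to 8 lower. With iMDK in Huh6, 1 to 6 were lower at 5 µM, 4 to 6 at 10 µM and 0 to 1 between the doses. In HepG2, 0 to 1 were higher with PKF118-310, 1 to 12 higher with 5 µM iMDK, 0 to 4 higher and 0 to 6 lower with 10 µM, and 0 to 9 lower between the doses. With HepG2 against Huh6 in THP-1, 0 to 1 were lower, and the iMDK response was higher in HepG2 for 3 to 13 at 5 µM and 2 to 10 at 10 µM.

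A requirement of 1.5-fold left 0 in all comparisons with a called mRNA, except the lower mRNAs of HepG2 under PKF118-310, their difference from Huh6 and the vehicle comparison. In DESeq2 the higher mRNAs numbered 0, 1 and 1 at 0.2, 0.3 and 0.4 µM in Huh6, 0 in HepG2 with PKF118-310, and 1 and 0 in HepG2 at 5 and 10 µM iMDK. Its lower mRNAs numbered 0 at 5 µM iMDK and 0 between the doses in Huh6, 0 at 10 µM and 0 between the doses in HepG2, and 2 for THP-1 with HepG2 against Huh6; its differences in iMDK response numbered 2 and 2. With DESeq2 size factors 5 were higher at 0.4 µM in Huh6. Total-count scaling gave 0, 3 and 1 higher at the 3 doses in Huh6, 9 and 5 higher at 5 and 10 µM iMDK in HepG2 and 0 lower at 10 µM. Without the filter on low counts these were 5, 9 and 5 in Huh6, 3 higher at 0.4 against 0.2 µM, 3 lower between the iMDK doses, 8 and 4 higher and 4 lower in HepG2 with iMDK, 11 lower between its doses and 13 for the difference at 5 µM. Fits of only the groups compared gave 2 higher at 0.2 µM and 2 at 0.4 against 0.2 µM in Huh6, 2 lower between its iMDK doses, 10 lower between those of HepG2 and 0 lower for THP-1 with HepG2 against Huh6, where subtraction of tumour reads gave 3.

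With the replicate number as a block, 0 were higher at 0.2 µM in Huh6, 6 and 2 higher at 5 and 10 µM iMDK in HepG2, 1 lower in THP-1 with HepG2 against alone and 5 lower with HepG2 against Huh6; other counts stayed within 1.5 times. Same-numbered libraries of the tumour lines did not deviate together (r from -0.0928 to 0.140).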
